A study of Homo sapiens with 29 samples.

Results

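The genes for inflammatory cytokines and chemokines followed here through the PC9 AXL lines are CXCL1, CXCL2, CXCL3, CXCL5, CXCL8, IL6, IL1A, IL1B, LIF and CCL20. They were chosen by name as the secreted inflammatory signals that epithelial cells can make, and are 10 of the 35579 genes whose transcripts were summed. PC9 is a lung adenocarcinoma cell line that depends on mutant EGFR. The 10 lines were the parental cells (PAR), AXL knockout cells made from them by CRISPR-Cas9 (KO), and KO cells given AXL back by lentivirus as wild type (WT), as a kinase-dead form (KD) or with 1 tyrosine changed to phenylalanine (Y634F, Y643F, Y698F, Y726F, Y750F and Y821F). Each line was sequenced untreated (UT) and after 24 h with 1 μM of the EGFR inhibitor erlotinib (E), and each line but KO also with E and 300 ng/mL of the AXL-activating antibody AF154 (EA), which gave 10, 10 and 9 libraries. KO cells given EA were not analysed here. The transduced lines are sorted pools that still hold KO cells, and the paper reports that only a minority of the transduced cells express AXL. All lines derive from 1 cancer cell line. Every combination of a line with a treatment was sequenced as a single library. Lines therefore stand in as replicates of a treatment, and p-values measure the spread between them.

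CXCL1, CXCL2, CXCL3, CXCL5 and CXCL8 are chemokines that draw neutrophils through the receptors CXCR1 and CXCR2, and CCL20 draws CCR6-bearing lymphocytes and dendritic cells. IL1A and IL1B act through the IL-1 receptor and switch on NF-kB, which in turn drives many of the other genes, while IL6 and LIF signal through the shared receptor chain gp130 to STAT3. In lung tumors these signals are known as a link between cancer cells and the immune and stromal cells around them.

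The 5 CXCL genes lie together on chromosome 4, within 358788 bases of GRCh38 (chr4:73740506-74099293, GENCODE release 29). CXCL8 and CXCL1 are on the plus strand there, and CXCL5, CXCL3 and CXCL2 on the minus strand. IL1A (chr2:112773915-112784590) and IL1B (chr2:112829751-112836903) are neighbors on the minus strand of chromosome 2. CCL20 (chr2:227805739-227817564) lies farther along that chromosome on the plus strand, IL6 is at chr7:22725884-22732002 on the plus strand, and LIF at chr22:30240447-30246851 on the minus strand.

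Promoter sequence is shown for the 3 genes with the largest changes after erlotinib, IL6, which rose, and IL1A and IL1B, which fell. The 250 bases before the transcription start in the RefSeq promoter table (GRCh38.p14) are given 5′ to 3′ on the strand of the gene, with matches to the NF-kB motif GGANTTTCC and the AP-1 motif TGANTCA in capitals. IL6 is chr7:22726950-22727199 on the plus strand, IL1A chr2:112784494-112784743 on the minus strand and IL1B chr2:112836780-112837029 on the minus strand.
IL6: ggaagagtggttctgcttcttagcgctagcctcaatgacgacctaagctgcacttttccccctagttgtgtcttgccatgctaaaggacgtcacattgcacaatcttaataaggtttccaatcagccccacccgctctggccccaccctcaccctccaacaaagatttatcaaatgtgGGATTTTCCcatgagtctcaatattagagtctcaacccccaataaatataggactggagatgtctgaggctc
IL1A: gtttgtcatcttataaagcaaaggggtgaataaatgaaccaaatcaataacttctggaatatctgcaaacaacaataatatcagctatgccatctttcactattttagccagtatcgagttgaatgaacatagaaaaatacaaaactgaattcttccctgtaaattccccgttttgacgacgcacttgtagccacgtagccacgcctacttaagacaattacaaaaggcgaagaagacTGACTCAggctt
IL1B: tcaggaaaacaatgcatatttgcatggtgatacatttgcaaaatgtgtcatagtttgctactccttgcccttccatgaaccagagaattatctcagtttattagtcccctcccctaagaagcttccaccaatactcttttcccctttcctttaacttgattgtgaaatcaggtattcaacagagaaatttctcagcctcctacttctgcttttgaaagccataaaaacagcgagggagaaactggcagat

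The chemokines on chromosome 4 shared 1 feature of the promoter, a match to GGANTTTCC close before the start, and 59 bases around it are shown to compare the 5 genes. They are chr4:73869290-73869348 on the plus strand for CXCL1, chr4:74099239-74099297, chr4:74038734-74038792 and chr4:73998734-73998792 on the minus strand for CXCL2, CXCL3 and CXCL5, and chr4:73740453-73740511 on the plus strand for CXCL8.
CXCL1: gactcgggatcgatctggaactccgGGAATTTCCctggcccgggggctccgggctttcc
CXCL2: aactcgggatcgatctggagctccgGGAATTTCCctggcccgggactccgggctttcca
CXCL3: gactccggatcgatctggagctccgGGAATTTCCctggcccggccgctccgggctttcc
CXCL5: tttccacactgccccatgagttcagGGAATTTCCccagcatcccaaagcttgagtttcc
CXCL8: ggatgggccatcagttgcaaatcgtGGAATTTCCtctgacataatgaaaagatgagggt

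Both motifs were searched on both strands of the 300-base promoters, from 250 bases before the start to 50 after, and their matches did not overlap each other in these genes. GGANTTTCC occurred in 6 of the 9 genes with a promoter in the table, namely the 5 CXCL genes and IL6, against 1.64% of all 35116 promoters. TGANTCA occurred in CXCL8 and, at 2 places, in IL1A, against 7.71% of all promoters. IL1B and CCL20 held neither, and LIF has no entry. These are matches of letters in this window and no more, and other spellings of NF-kB or AP-1 sites were not searched.

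The targeted gene and the cell type were checked first. AXL was listed at 92.4 TPM in KO without treatment and at 79.3 TPM with E, below the 217 to 428 TPM and 245 to 852 TPM of the other 9 lines. The 6 epithelial markers (EPCAM, CDH1 and 4 keratins) summed to 8155 to 11180 TPM in every library. Of 10 leukocyte markers, CD3E, S100A8 and FCGR3A were at 0 in all libraries and 7 had a mean under 1 TPM, while ITGAM and CSF1R rose and CD68 fell with E, and the sum went from between 51.1 and 84.4 TPM to between 68.7 and 92.0 TPM. Of 6 fibroblast markers only COL1A1 reached a mean of 1 TPM over the 29 libraries, and it rose with E, with a summed level of 16.2 to 36.6 TPM without treatment and 37.9 to 62.6 TPM with E. The part of these markers in the results was not tested, and in bulk RNA fewer cells of a type and less RNA per cell cannot be told apart. Mitochondrial transcripts took 14.4% of the TPM in PAR against 11.4 to 14.2% in the other lines without treatment, 17.4% against 12.3 to 14.2% with E, and 16.4% against 12.9 to 17.4% with EA, so that PAR lay above the other lines without treatment and with E and within their range with EA.

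LIF and IL6 had the highest means of the members over the 29 libraries, at 19.7 and 12.2 TPM, and the CXCL genes were low, with means of at most 1.04 TPM. TPM is scaled by transcript length, so levels can be set side by side between genes. Without treatment the mean was 25.5 TPM for LIF, 7.04 for IL1A, 4.51 for IL6, 4.05 for IL1B, 2.04 for CCL20, 1.33 for CXCL8 and 1.31 for CXCL1. LIF, at 20.7 to 34.2 TPM, did not overlap IL1A, at 5.97 to 8.85 TPM, whereas every later neighbor in that order overlapped the gene before it. With E the order changed, and IL6 at a mean of 17.2 TPM and LIF at 15.7 TPM overlapped each other and stood above all the others, whose means were at most 1.35 TPM. CXCL2 had a mean of 0.463 TPM over the 29 libraries, CXCL3 of 0.133 TPM and CXCL5 of 0.030 TPM. The 6 members IL6, LIF, IL1A, IL1B, CXCL8 and CCL20 reached the mean of 1 TPM that was asked of a gene for testing, and CXCL1 missed it at 0.972 TPM.

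**Figure D1:**
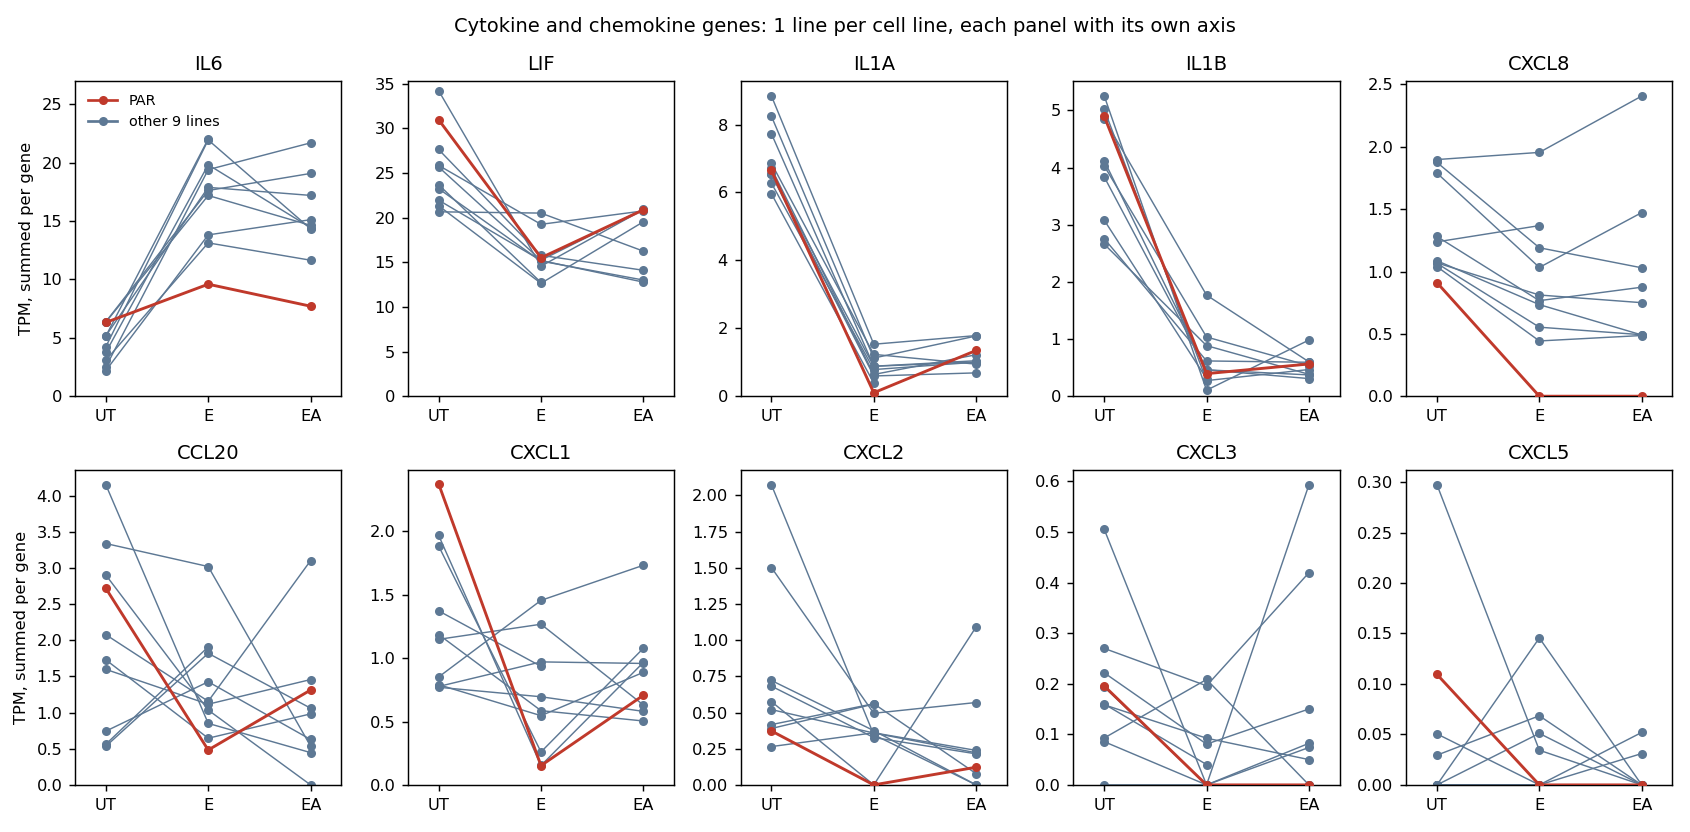
TPM of each of the 10 genes (vertical axes, own scale per panel) without treatment (UT), with erlotinib (E) and with erlotinib and AF154 (EA), 1 connected set of points per cell line and PAR in red. IL6 climbed in all 10 lines from UT to E and least in PAR, IL1A and IL1B fell in all 10, and CXCL8 was listed at 0 in PAR with E and EA.

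Erlotinib against no treatment asks what blocking EGFR does to these genes. IL6, which encodes the gp130 cytokine interleukin-6, was the 1 member that rose, 3.82-fold on mean TPM. IL1A and IL1B, which encode the IL-1 cytokines, fell by the most, with untreated means 8.62 and 6.42 times those with E. LIF, the gp130 cytokine that was more abundant without treatment, fell more modestly, with an untreated mean 1.63 times that with E. In the limma fit with the line as a block, 1 member was called higher and 4 lower at an adjusted p under 0.05, beside 35.5% of the 14111 genes tested called higher and 36.3% called lower, so that a call in itself was common. The share of all genes whose E and untreated levels did not overlap is not given here. A lack of overlap below is therefore a description and cannot be read as particular to a member.

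IL6 was at 6.32 TPM in PAR, 5.15 in KO, 3.09 in WT, 5.17 in KD, 4.24 in Y634F, 6.38 in Y643F, 2.19 in Y698F, 6.35 in Y726F, 3.75 in Y750F and 2.51 in Y821F without treatment. With E it was at 9.60, 22.0, 13.1, 17.9, 22.0, 17.6, 13.8, 17.2, 19.8 and 19.4 TPM in the same lines. No line with E overlapped the untreated lines, and PAR, which was among the higher lines untreated, was the lowest with E. The change on the log2(TPM + 1) scale was 1.75 (SE 0.159, limma adjusted p 2.95e-07), higher in 10 of 10 lines, and it was number 179 of the 14111 genes in order of rise. It was 0.53 in PAR and between 1.31 and 2.54 in the other lines.

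In TPM, the rise of IL6 was largest in the coding transcript IL6-201. That transcript had a mean of 1.18 ± 0.64 TPM (SD, n = 10) untreated and of 7.80 ± 2.54 TPM (SD, n = 10) with E, and was higher in 10 of 10 lines. It made up 26.5% of the gene on average without treatment and 45.9% with E. IL6-209, a transcript with a retained intron, went from a mean of 0.19 to 1.72 TPM. The IL6 gene overlaps STEAP1B, a gene on the opposite strand listed at 7.42 to 16.3 TPM, and 0.754% of the 31-base words of its transcripts also occur there. How strand was handled is not given in the sources used here, so reads of this overlap cannot be assigned to either gene with certainty.

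IL1A was at 5.97 to 8.85 TPM untreated, with a median of 6.68, and at 0.102 to 1.53 TPM with E, with a median of 0.833. IL1B was at 2.66 to 5.26 TPM untreated, with a median of 4.08, and at 0.105 to 1.77 TPM with E, with a median of 0.462. For both genes the groups did not overlap, and Y643F was the highest line with E. IL1A fell by 2.17 on the log2 scale (SE 0.0971, limma adjusted p 2.06e-10) and was number 81 of the 14111 genes in order of fall. IL1B fell by 1.66 (SE 0.156, limma adjusted p 4.16e-07). Its change was -2.73 where the pseudocount was 0.1 in place of 1, since log2(TPM + 1) understates changes of low genes. Both were lower in 10 of 10 lines. IL1A has a single transcript in the table, and neither gene shares a 31-base word with another gene. Of IL1B, the coding transcript IL1B-201 went from a mean of 3.75 to 0.29 TPM. It made up 93.4% of the gene on average without treatment and 44.1% with E. IL1B-206, a transcript with a retained intron, had means of 0.18 and 0.20 TPM.

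LIF was at 20.7 to 34.2 TPM untreated, with a median of 24.7, and at 12.6 to 20.5 TPM with E, with a median of 15.2. The groups came close without overlapping, since WT had both the lowest untreated level, 20.66 TPM, and the highest level with E, 20.52 TPM. LIF fell by 0.67 on the log2 scale (SE 0.0910, limma adjusted p 1.64e-05) in 10 of 10 lines, by only 0.01 in WT and by up to 1.18 in Y643F. LIF-201 was lower in 10 of 10 lines, with means of 17.7 and 12.0 TPM, and LIF-202 in 8 of 10, with means of 7.81 and 3.68 TPM.

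CXCL8, the gene of interleukin-8, was at 0.911 to 1.90 TPM untreated, with a median of 1.16, and with E between 0 in PAR and 1.96 TPM in Y643F, with a median of 0.789. The groups overlapped. Its change was -0.34 on the log2 scale (SE 0.115, limma adjusted p 0.0169), lower in 8 of 10 lines and higher in KO and Y643F, and -0.80 with the pseudocount of 0.1. The value of -0.80 leans on the 0 listed in PAR with E, since a 0 weighs more with the smaller pseudocount. The adjusted p was 0.0582 without the line as a block. CCL20 was at 0.534 to 4.15 TPM untreated, with a median of 1.90, and at 0.483 to 3.02 TPM with E, with a median of 1.14. Its change of -0.31 on the log2 scale (SE 0.238, limma adjusted p 0.253), lower in 7 of 10 lines, did not pass the threshold, with a 95% interval from -0.83 to 0.20.

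The 4 remaining chemokines were too low for the main test. CXCL1 was at 0.770 to 2.38 TPM untreated, with a median of 1.17, and at 0.152 to 1.46 TPM with E, with a median of 0.641. PAR was the highest line untreated and the lowest with E. The coding transcript CXCL1-201 had means of 0.62 and 0.49 TPM, and CXCL1-202, which is not annotated as coding, of 0.70 and 0.21 TPM. CXCL2 was at 0.265 to 2.07 TPM untreated and at up to 0.561 TPM with E, where PAR and Y726F were listed at 0. Its coding transcript CXCL2-202 had means of 0.31 and 0.25 TPM, and CXCL2-203, with a retained intron, of 0.37 and 0.08 TPM. CXCL3 was listed at 0 in 5 of 10 lines with E and CXCL5 in 6 of 10, with highest values of 0.208 and 0.146 TPM. In a fit of all genes above 0 in at least 1 library, limma's adjusted p was 0.118 for CXCL1, 0.0609 for CXCL2, 0.0535 for CXCL3 and 0.724 for CXCL5. CXCL1, CXCL2 and CXCL3 are near copies of each other. Of their 31-base words, 14.4% in CXCL1, 22.4% in CXCL2 and 9.54% in CXCL3 occur in other genes, mostly each other, so their split is uncertain.

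**Figure D2:**
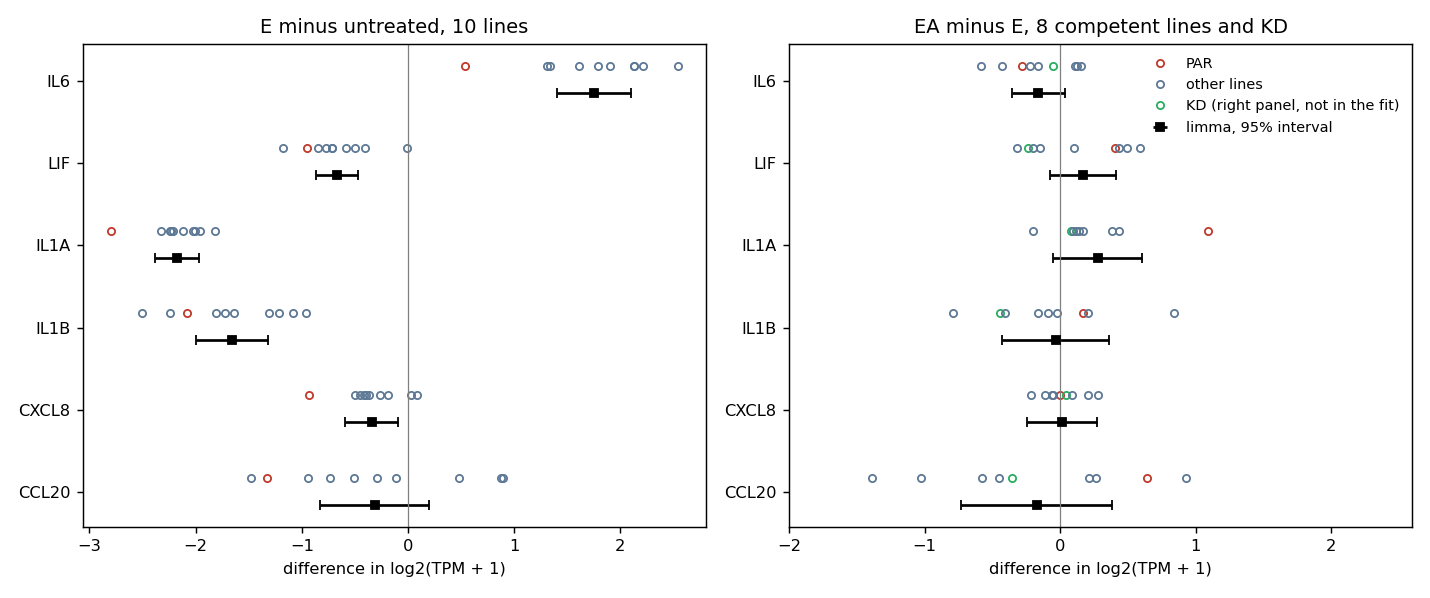
Differences in log2(TPM + 1) of the 6 tested members (horizontal axes), open circles for single lines (PAR red) and black squares for the limma estimate with its unadjusted 95% interval, E minus untreated on the left and EA minus E on the right, where KD (green) was not in the fit. On the left IL6 sits above 0 and IL1A, IL1B and LIF below 0 in every line, and on the right all 6 intervals include 0.

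AF154 added to erlotinib asks what AXL activation does to these genes while EGFR is blocked, in the 8 lines with a kinase-competent receptor. All of these lines but PAR are pools in which most cells lack AXL, so a change confined to the AXL-expressing cells was not tested. No member passed the threshold, beside 0.475% of the 14111 genes tested. None had an unadjusted p under 0.05 in the limma fit, beside 2382 of those genes. IL6 was at 7.71 TPM in PAR, 11.7 in WT, 19.1 in Y643F, 15.1 in Y698F, 14.6 in Y726F, 14.4 in Y750F, 21.7 in Y821F and 14.3 in Y634F with EA. These levels lay within or just below those with E, with PAR again the lowest, and all were above the highest untreated level. The IL6 difference was -0.16 on the log2 scale (SE 0.0882, limma adjusted p 0.385), with a 95% interval from -0.36 to 0.03.

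IL1A with EA was at 0.687 to 1.79 TPM, with a median of 1.04, over the 9 lines, and every line stayed below the lowest untreated level. It was higher with EA than with E in 7 of 8 lines, by 0.28 on the log2 scale (SE 0.149, limma adjusted p 0.373, 95% interval from -0.05 to 0.61), and the difference in PAR was 1.09, from 0.102 to 1.35 TPM. Without PAR it was 0.16 (limma adjusted p 0.590). IL1B was at 0.308 to 0.983 TPM with EA and differed by -0.03 (limma adjusted p 0.950, 95% interval from -0.43 to 0.36). LIF was at 12.8 to 21.0 TPM with EA, with a median of 19.5, higher than with E in 5 of 8 lines, by 0.17 on the log2 scale (SE 0.109, limma adjusted p 0.466, 95% interval from -0.07 to 0.41).

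CXCL8 with EA was between 0 in PAR and 2.41 TPM in Y643F, and CCL20 between 0 in Y821F and 3.10 TPM in Y726F. The CXCL8 difference was 0.02 (limma adjusted p 0.959, 95% interval from -0.24 to 0.28) and the CCL20 difference -0.17 (limma adjusted p 0.777, 95% interval from -0.73 to 0.38). For CCL20 the lines did not move together, 4 being higher and 4 lower with EA. KD, outside the fit, differed by -0.05 for IL6, 0.08 for IL1A, -0.45 for IL1B and -0.23 for LIF, each a single difference with no replicate.

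The pathway genes around the members were counted on the same fit of E against no treatment, so the same 35.5% higher and 36.3% lower stand beside each count. Of 20 tested genes of NF-kB, the transcription factor family that many of the chemokines answer to, 13 were higher, 5 lower and 2 not called, with a median change of 0.33 against 0.01 over all genes. ICAM1, an adhesion molecule, went from a mean of 10.1 to 41.6 TPM (log2 change 1.95, SE 0.0505, limma adjusted p 1.81e-12). BCL3, an atypical inhibitor of NF-kB proteins, went from 24.1 to 84.0 TPM, RELB, an NF-kB subunit, from 13.7 to 38.0 TPM, and BIRC3, a survival factor, from 21.0 to 52.7 TPM, by 1.77, 1.40 and 1.24 on the log2 scale. The 5 lower genes were NFKB1, NFKBIB, TNFAIP3, SOD2 and CHUK. TNFAIP3 fell the most of these, from a mean of 40.3 to 24.7 TPM, by 0.69 on the log2 scale.

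Among the regulators of gp130 signaling and its C/EBP partners, 5 of 12 were higher and 6 lower, with a median change of -0.29. CEBPD, a C/EBP factor, rose by 1.38 on the log2 scale, STAT3 by 0.90 and its kinase JAK1 by 0.74. SOCS3, the feedback inhibitor that STAT3 induces, fell by 0.91, from a mean of 14.4 to 7.11 TPM. Of 11 genes for proteins that bind cytokine mRNAs, the mRNA decay list, 5 were higher and 5 lower, with a median of -0.11. TIA1 rose by 1.03 and ZFP36L1, a decay factor, by 0.66 on the log2 scale, while HNRNPD fell by 0.87 and KHSRP by 0.62.

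Of the 11 receptors, CXCR1, CXCR2, CCR6 and ACKR1 were below the mean of 1 TPM, and of the 7 tested 1 was higher and 4 lower, with a median of -0.22. IL1R2, the decoy receptor of IL-1, fell by 2.55 on the log2 scale (SE 0.129, limma adjusted p 7.01e-10), from a mean of 23.1 to 3.09 TPM, in the same direction as IL1A and IL1B. IL1RAP, the partner chain of the IL-1 receptor, fell by 0.42, and LIFR, the receptor of LIF, rose by 0.52. IL6R had a change of -0.34 that just passed the threshold (limma adjusted p 0.0452), and it no longer did without KD, WT, Y698F, Y726F, Y750F or Y821F in turn, where its change was between -0.34 and -0.26, nor after median centring or without the filter on low values. Of 6 tested genes of the IL-1 family and its processing, IL1RN, the IL-1 receptor antagonist, fell from a mean of 9.88 to 4.41 TPM (limma adjusted p 1.57e-07). PYCARD, the inflammasome adaptor, rose by 0.59 and NLRP1, a sensor, by 0.48, or by 0.92 with the pseudocount of 0.1, and 3 were not called, so the median was 0.23.

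Of 29 other cytokine and chemokine genes, 12 could be tested and 4 were higher, 2 lower and 6 not called, with a median of 0.00. IL32, a cytokine, went from a mean of 29.6 to 190 TPM, the largest change of these lists (log2 change 2.66, SE 0.0655, limma adjusted p 1.30e-12). IL23A, a subunit of interleukin-23, went from 10.9 to 31.4 TPM, CXCL16, a membrane-bound chemokine, from 71.6 to 153 TPM and CLCF1, another gp130 cytokine, from 20.8 to 29.3 TPM, by 1.43, 1.09 and 0.49 on the log2 scale. With E, IL32 and CXCL16 were thus listed far above all 10 members. In the EA minus E fit no gene of these 6 lists passed the threshold, and 5 NF-kB genes, 1 gene of the IL-1 family, 1 of mRNA decay and 1 other cytokine had an unadjusted p under 0.05. Over all 14111 genes tested, 2382 had an unadjusted p under 0.05 in that limma fit.

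**Figure D3:**
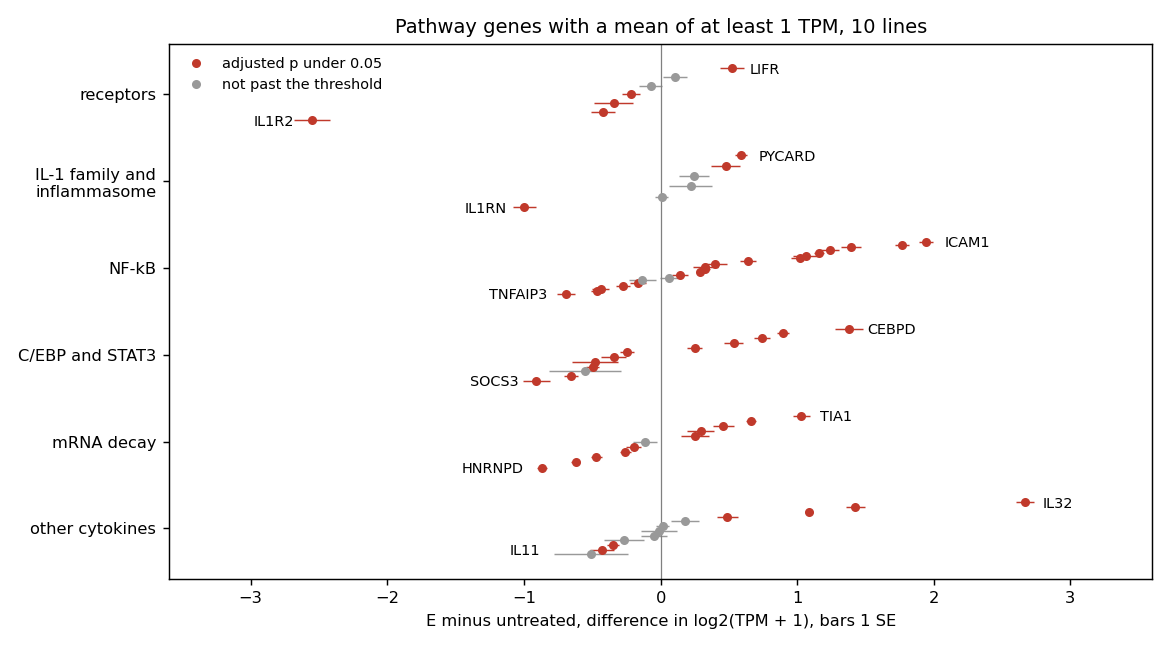
E minus untreated in log2(TPM + 1) (horizontal axis) for each tested gene of 6 pathway lists, points with bars of 1 SE, red where the limma adjusted p was under 0.05 and gray otherwise, with the most negative and the most positive called gene of each list named. NF-kB genes lie mostly to the right, up to ICAM1 at 1.95, and IL1R2 lies farthest left at -2.55.

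PAR was set against the 9 knockout-derived lines, adjusted for treatment, to see whether the knockout and transduction history marks these genes. CXCL8 was lower in PAR, the 1 member of 6 tested that passed the threshold, beside 23% of the 14111 genes tested called lower. It was at 0.911 TPM in PAR without treatment and listed at 0 with E and with EA, against 1.04 to 1.90, 0.443 to 1.96 and 0.487 to 2.41 TPM in the other lines. PAR was below every other line in each treatment. The difference was -0.73 on the log2 scale (SE 0.142, limma adjusted p 0.000312), or -2.37 with the pseudocount of 0.1, and its adjusted p was 0.0552 without the E libraries. The value of -2.37 leans on the 0 listed in PAR with E and with EA, and the depth behind these is unknown. PAR is a single line, so the p-value measures the spread between libraries and not between lines of its kind. The part of its mitochondrial share in this difference was not tested.

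IL6 was lower in PAR than in the other lines only once the cells were treated, at rank 3 of 10 from the top without treatment and lowest with E and with EA. Over all treatments the difference was -0.43 (SE 0.215, limma adjusted p 0.125), and without the untreated libraries it was -0.91 (limma adjusted p 0.000216). That alternative rests on the E and EA libraries of PAR and drops the treatment in which PAR ranked high. Its p-value is therefore no separate support, and whether the difference depends on treatment was not tested. The differences of IL1A, IL1B, LIF and CCL20 were -0.22, 0.05, 0.21 and 0.04 on the log2 scale, and none passed the threshold. Of the 14111 genes tested, 3244 were lower in PAR and 2152 higher, and these stand beside each count of the pathway lists. Among these lists, 10 of 20 NF-kB genes were lower in PAR and 1 higher, with a median of -0.16 against -0.05 over all genes. BIRC3 was lower by -2.12 on the log2 scale, ICAM1 by -1.14, RELB by -0.91 and TRAF1, an adaptor of TNF receptors, by -0.79. Without the E libraries 6 NF-kB genes were lower, beside 1625 over all genes.

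The C/EBP and STAT3 list had 7 of 12 genes lower and 1 higher in PAR, SOCS3 being lower at -0.65 and PIM1 at -0.52 and CEBPA higher at 0.98, while the difference of JAK2, -0.90, lost its call without the E or without the EA libraries. The count of lower genes there was 3 without the E libraries and 4 without the EA libraries, beside 1625 and 2346 over all genes. IL1R2, LIFR and IL1R1 were higher in PAR, by 0.90, 0.52 and 0.39, and IL18 and PYCARD lower, at -0.43 and -0.32, though LIFR was not called without the UT or without the E libraries, nor IL1R1 without the E or without the EA libraries. Of the other cytokines IL23A at -1.15 and CSF1 at -0.55 were lower, and CCL28, IL11 and IL15 were higher by 0.53, 0.40 and 0.36. CCL28 was not called without the E libraries, nor IL11 without the UT or without the EA libraries. ZC3H12A and ZFP36L2, of the mRNA decay list, were lower at -0.40 and -0.34, and ZC3H12A was not called without the EA libraries.

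KO was set against the 8 transduced lines and KD against the 7 transduced lines with a kinase-competent receptor, to ask whether losing AXL or its kinase activity changes these genes. KO and KD are each 1 line, so the p-values and intervals measure the spread between libraries and not between lines of their kind. An effect of AXL or its kinase cannot be told apart from other traits of that line. Most cells of the transduced pools lack AXL, so an effect confined to the AXL-expressing cells was not tested. No member passed the threshold in either limma fit, beside 0.886% of the 14111 genes tested for KO and 0% for KD, where 1599 genes had an unadjusted p under 0.05. In KO no member had an unadjusted p under 0.05, beside 1466 of the 14111 genes tested. The differences in KO ran from -0.34 for IL1A (95% interval from -0.67 to 0.00) to 0.28 for IL6 (95% interval from -0.26 to 0.83). In KD 2 members had an unadjusted p under 0.05, CXCL8 at -0.37 (limma adjusted p 0.315, 95% interval from -0.67 to -0.07) and IL1A at -0.29 (limma adjusted p 0.422, 95% interval from -0.56 to -0.01). KD was thus at 1.04, 0.443 and 0.487 TPM of CXCL8 without treatment, with E and with EA. Of the pathway genes, ICAM1 alone was called in these fits, higher in KO by 0.47 (limma adjusted p 0.0332).

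**Figure D4:**
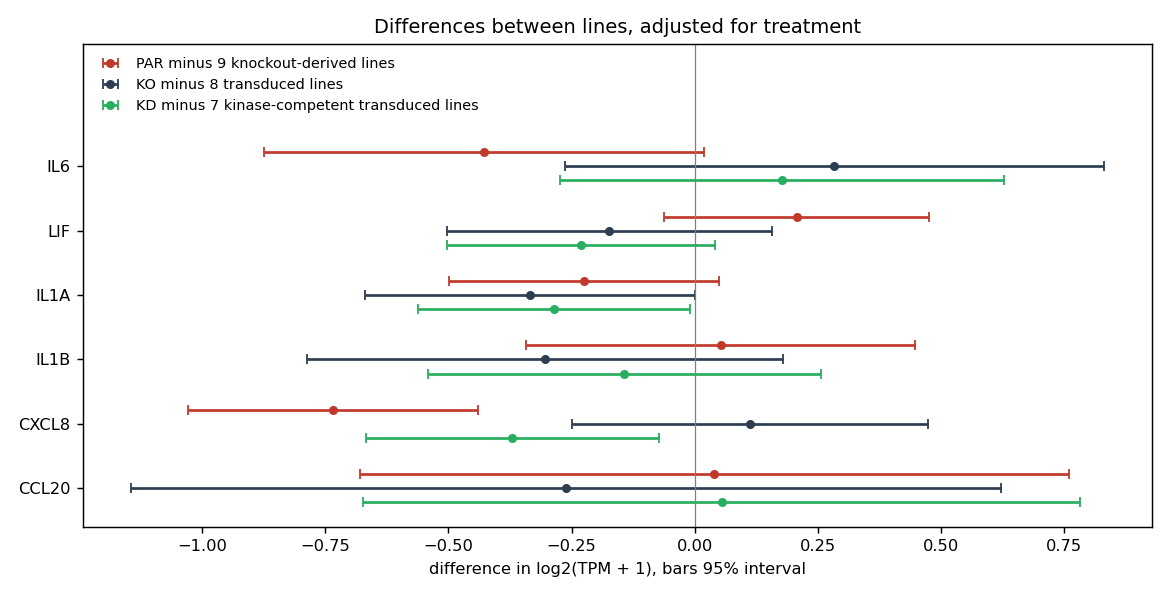
Differences between lines in log2(TPM + 1), adjusted for treatment (horizontal axis), for the 6 tested members, with unadjusted 95% intervals, PAR against the knockout-derived lines in red, KO against the transduced lines in dark blue and KD against the kinase-competent transduced lines in green. The interval of CXCL8 in PAR, from -1.03 to -0.44, lies farthest from 0.

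After the mean of each treatment was subtracted, the highest Pearson r of log2(TPM + 1) between 2 of the 6 tested members over the 29 libraries was 0.64, between CXCL8 and IL1A, and IL1A with LIF had 0.49. IL1A with IL1B had 0.37 and IL1B with LIF 0.32. IL6 had 0.39 with CXCL8, 0.12 with IL1A, -0.03 with IL1B, -0.02 with LIF and -0.24 with CCL20, and the other pairs lay between 0.03 and 0.27. The libraries of a line share its cells and all share the TPM scaling, so these are descriptions. Among 9083 genes, the pattern most like LIF was that of DHRS7B (r 0.75), COTL1 (0.74) and TUBB2A (0.74). For IL6 it was LMBR1L (0.80), C20orf96 (0.74) and AMOTL2 (0.71), of which the last had 0.45 without the PAR libraries. For IL1A it was MCM8 (0.80), CDC6 (0.79) and G0S2 (0.78).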

How the data were processed

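RNA of 10 PC9 lines was measured in 29 libraries, grouped by the line and treatment in the labels. The authors deposited TPM per transcript, and the submitters' processing notes name kallisto and GRCh38. The version, annotation and strand handling are not given in the sources used here. TPM keeps no depth, so the reads behind a value are unknown.

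Of 188753 transcripts, 169797 were matched by identifier to GENCODE release 29 and summed to 35579 genes, and 18956 were not used. The matched transcripts held 97.0 to 97.4% of the TPM of a library. The 14111 genes averaging 1 TPM or more over the libraries were tested on log2(TPM + 1) with limma 3.58.1 in R 4.3.3 (trend), with the line as a block for treatments and an additive fit of treatment and line for differences between lines, and Benjamini-Hochberg adjustment over all tested genes with a threshold of 0.05. The comparison of EA with E used 8 lines, without KO and KD. The block follows from the design, since the libraries of a line are the same cells. Deviations of the UT and E libraries of a line correlated by -0.01 to 0.45.

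All 10 members are named, with up to 4 called genes of largest change in each pathway list and, for the 3 most abundant members, the 3 genes of most similar pattern. The NF-kB genes lower with E are named besides. Members and lists were chosen with earlier results of these data known. Alternatives were a pseudocount of 0.1, a mean of at least 10 TPM or no filter, median centring, quantile normalization, no block, the KD pair added, and leaving out each line or treatment. Those for the pathway lists were added after seeing the data. The limma steps were run on simulated data with independent noise and no line or treatment effects other than those planted. These data do not check the use of the line as a block or the shared history of the lines. Sums, shares and correlations were computed in Python 3.11.15 (pandas 2.3.3, numpy 2.4.6) and plotted with matplotlib 3.10.9.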

Additional observations from a re-analysis of the deposited data

Results flagged for a closer look

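In all, 3 values stood apart from the rest of their group by Dixon's test, among 30 groups examined, where chance gives about 1 in 20. The groups were, for each of the 6 tested members, its TPM in each treatment and its changes E minus untreated and EA minus E. The change of IL1A with E was -2.80 on the log2 scale in PAR, against -2.33 to -1.82 in the other 9 lines. IL1B with EA was at 0.983 TPM in Y698F, against 0.308 to 0.601 TPM in the other lines. CCL20 with EA was at 3.10 TPM in Y726F, against 0 to 1.46 TPM in the other lines. All 3 rest on single libraries of low genes, and their cause was not tested.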

How the results depend on the processing

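The rise of IL6 and the falls of IL1A, IL1B and LIF with E kept their direction and their call under every alternative in which the gene was tested. CXCL8 lost its call without the replicate block (adjusted p 0.0582), and 2 members, IL6 and LIF, were left to be called with a mean of at least 10 TPM, since fewer genes were tested. Leaving out each line left 5 members called. For EA minus E no alternative called a member. The count of genes called, 67, was 214 with the filter of 10 TPM, 6 without a filter, 32 after median centring, 3 with no replicate block and 27 with the KD pair added, and from 0 (without Y634F) to 38 (without WT) with a line left out, being 34 without PAR, 20 without Y726F, 6 without Y643F, Y698F or Y750F and 5 without Y821F. The lines pair the libraries, and no other call of a member changed without that block. For PAR, 0 members were called with the filter of 10 TPM, where CXCL8 was not tested. With a treatment left out, 0 members (without E) to 2 members (without UT) and 3166 to 4845 genes were called, against 5396. For KO, against 125 genes, 0 (without E) to 83 (without EA) were called, and 46.4% of calls were higher as reported but 57.1% after median centring. For KD, 5 genes were called without a filter and 0 to 1 (without UT) with a treatment left out. No scaling moved the median of all genes by more than 0.1. Depth is unknown, so detection of the low CXCL genes cannot be judged.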
